A study of Homo sapiens with 8 samples.

Results

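The genes described here encode the proteins of the mitochondrial ribosome. They were taken by name, as every probe of the array whose symbol began with MRPL or MRPS followed by a number. The rule found 75 genes, measured by 85 probe spots, among 17621 genes and 24460 probe spots in all. Of these, 46 genes (51 spots) carried large subunit symbols (MRPL) and 29 genes (34 spots) carried small subunit symbols (MRPS). mRNA had been profiled in HCT116 cells, an established human colorectal cancer cell line, to look for genes that respond to the microRNA miR-8073. The groups were 3 arrays of cells transfected with a synthetic miR-8073 mimic (mimic), 3 arrays of cells transfected with a miRNA-negative control sequence (neg) and 2 arrays of mock cells, which had received a blank. The labels gave no time after transfection, and the study's own text gives more than 1 time for this experiment. Nor did they say whether replicates were separate cultures. The p-values therefore reflect how far these particular samples scatter, and that scatter may be purely technical.

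Mitochondria keep a small genome of their own, and its few protein-coding genes, all for membrane subunits of the respiratory chain and ATP synthase in humans, are translated by ribosomes that sit in the matrix. The ribosomal RNAs are made inside the organelle, whereas every protein of these ribosomes is encoded in the nucleus, translated in the cytosol and imported. The mitochondrial ribosome descends from a bacterial one. Many of its proteins are homologues of bacterial ribosomal proteins, and others were added in the mitochondrial lineage. A microRNA pairs with mRNAs mainly through its seed, the bases 2 to 8 from its 5′ end. The mature sequence of miR-8073 in RefSeq (GRCh38.p14, chr13:110340968-110340989, plus strand), the RNA that the mimic copies, is shown with its seed in capitals.
hsa-miR-8073: aCCUGGCAgcagggagcgucgu

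Each array held labelled RNA from 1 sample in a single dye, and signals are given in scanner units after subtraction of the background estimated from blank spots and quantile normalization, so that a signal is relative to the other probes of its array. A log2 change is a difference in mean log2(signal + 50). On this scale changes of dim probes come out too small, and the error given is a standard error (SE) from the linear model in limma. A probe passed the test when its p-value, adjusted by Benjamini-Hochberg over all 12904 tested probes of the array, was below 0.05. The mean of the blank spots was 59.8 to 64.3 across arrays, and 47.3% to 52.3% of probes were above background. Correlations of log2 signal between arrays were 0.993 to 0.996 within groups and 0.983 to 0.993 between groups over all tested probes, and 0.969 to 0.989 and 0.926 to 0.983 over the mitochondrial ribosomal protein probes. Of 5 epithelial markers on the array, all 5 were above background on all 8 arrays, and KRT8 of the same list had no probe. KRT18 was at 3627 to 5492, KRT19 at 1766 to 2536 and EPCAM at 1202 to 1624. CDH1, at 44.4 to 67.6, and VIL1, at 8.87 to 17.3, were much dimmer. The fibroblast collagens COL1A1 and COL1A2, the leukocyte genes PTPRC and CD3E and the endothelial genes VWF and CDH5 were above background on no array. The leukocyte gene CD14 was above it on 1 array, with a signal of up to 4.98, and DCN and PDGFRB of the fibroblast list were above it on all 8. The summed signal of the 4 fibroblast markers was 64.5 to 79.7 on mimic arrays, 69.2 to 76.1 on neg arrays and 59.5 to 67.4 on mock arrays, and its part in the results was not tested.

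Nearly all of these genes were detected. Of the 85 spots, 83 were above background on all 8 arrays. MRPS25, a mitochondria-specific small subunit protein, was above background on 4 arrays and was the dimmest member tested. Its signals were 6.49, 3.95 and 8.57 on the mimic arrays, 4.25, 3.82 and 5.48 on the neg arrays and 4.99 and 4.66 on the mock arrays, which overlapped. MRPL22, a homologue of bacterial L22, was not above background on any array and was not tested, which left 84 spots of 74 genes. The median signal of the tested members was 494.6, with quartiles of 271 and 823, against 39.7 over all tested probes. MRPS15, a homologue of bacterial S15, was brightest. It had 1976, 1979 and 1838 on the mimic arrays, 2004, 1941 and 2137 on the neg arrays and 1722 and 1899.6 on the mock arrays, and it passed the test in none of the 3 comparisons (adjusted p of 0.461, 0.516 and 0.205 in limma for mimic against neg, mimic against mock and neg against mock). Signals of different probes depend on the probe, so they do not rank the genes or show how abundant the mRNAs were.

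The median deviation of the 84 members from their own means over the 8 arrays lay between -0.03 and 0.03 on the log2 scale on every array. The median log2 change of the members was -0.0024 for mimic against neg (0.0042 over all tested probes), -0.04 for mimic against mock (0.0063) and -0.04 for neg against mock (0.00088). Negative and positive signs were shared out as 43 and 41, 51 and 33, and 49 and 35 in these comparisons. When arrays were scaled to equal medians in place of quantiles, the median for mimic against neg was 0.10, beside 0.03 over all tested probes, so the sign of this small value depends on the scaling. With the same scaling the median was -0.0051 for mimic against mock (0.01 over all tested probes) and -0.13 for neg against mock (-0.03), where 60 of the 84 members had a negative sign. These are bulk samples, in which fewer cells that hold an mRNA and less of it in each cell cannot be told apart.

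**Figure D1:**
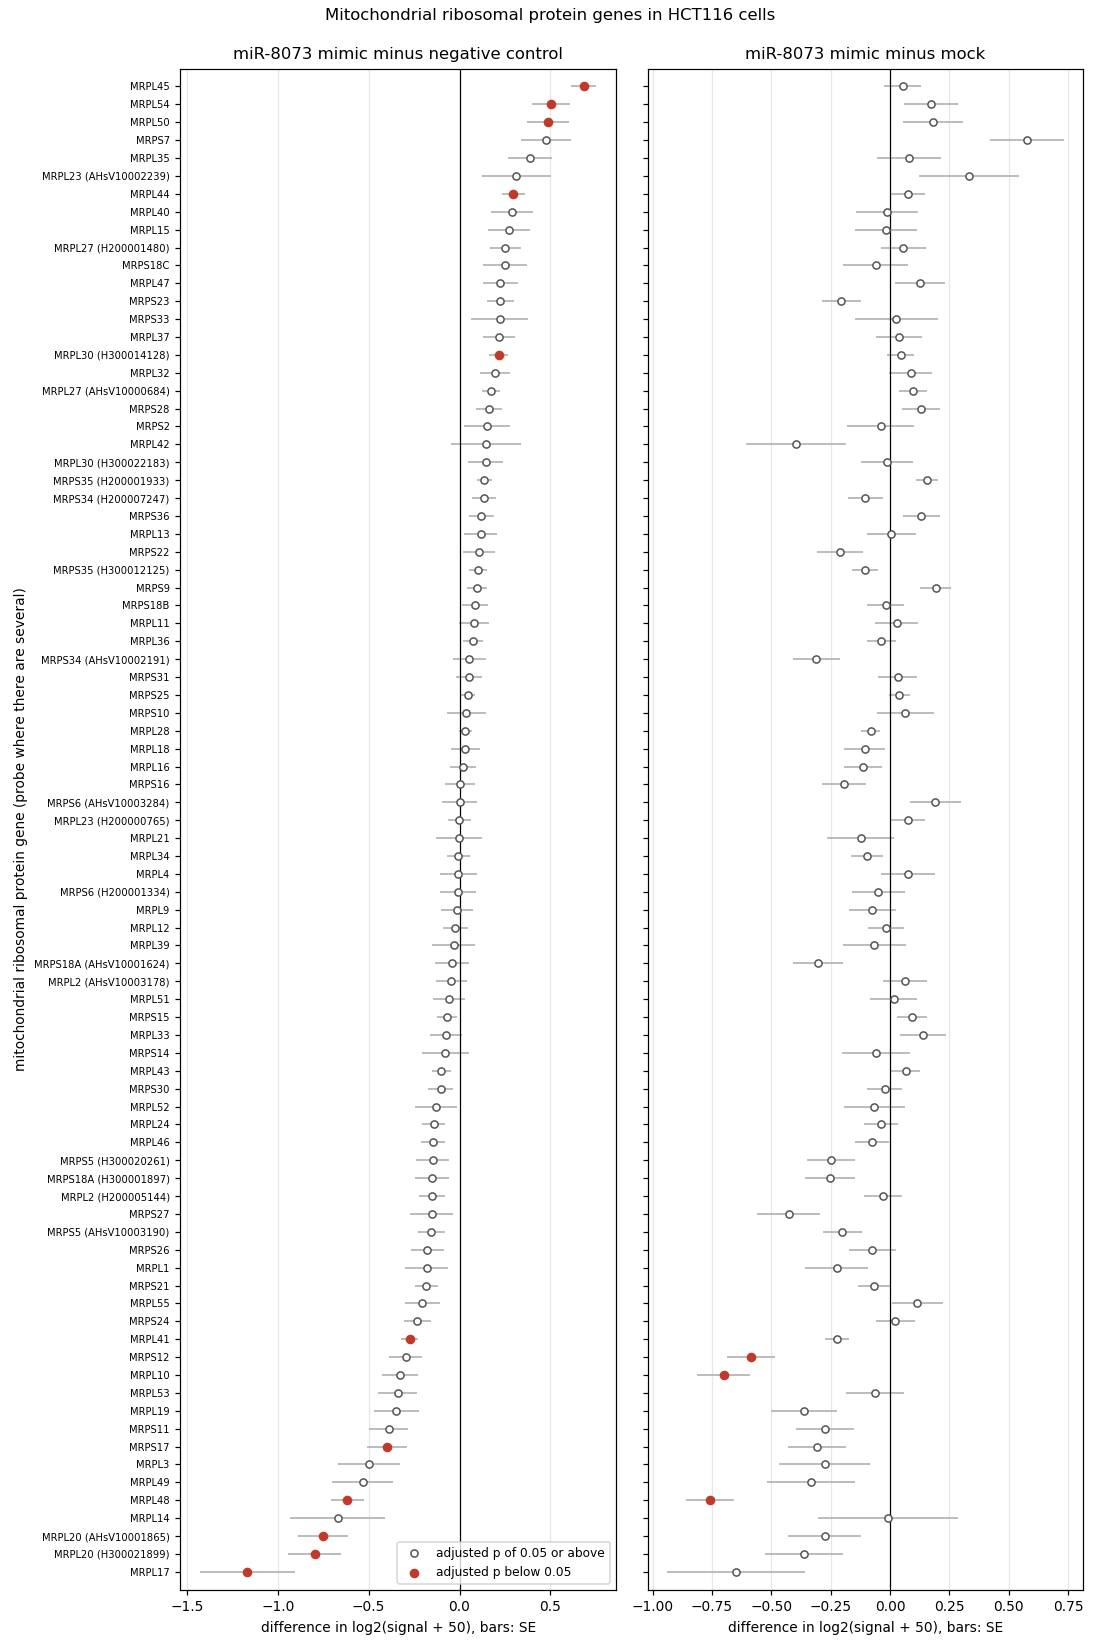
Difference in mean log2(signal + 50) for each tested mitochondrial ribosomal protein probe, mimic minus neg (left) and mimic minus mock (right), with bars of 1 SE, ordered by the left panel. Filled points passed the test, 11 on the left and 3 on the right, and the members spread to both sides of 0 in each panel.

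Individual members did differ. Against the neg arrays, 11 of 84 member spots passed the test in limma (13.1%, where 15.6% of all tested probes did). Of these, 6 spots of 5 genes were lower with the mimic and 5 spots of 5 genes were higher. Lower calls made up 7.81% of all tested probes and higher calls 7.82%, so the share of members called was near that of the whole array in both directions. The 6 lower and 5 higher became 0 and 2 with median scaling, and 3 and 1 with the authors' own log2 values. The 11 spots belonged to 10 genes, of which 9 were large subunit genes and 1, MRPS17, was a small subunit gene.

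RefSeq promoters (GRCh38.p14, 250 bases before to 50 bases after a transcription start) were matched for 67 of the 75 genes. Promoters are shown for 3 of the genes that fell and 1 that rose. Each is given as the 120 bases before the first start listed, 5′ to 3′ on the gene's strand. These are the genes past the test against neg whose 120 bases held marked letters. The same stretch of MRPL41, MRPS17, MRPL45, MRPL50, MRPL44 and MRPL30, which also passed, held none and is not shown. Capitals mark the letters CCGGAAG or their reverse complement, the core bound by ETS factors such as GABP, and in MRPL17 the letters CGCATGCG, the core of the NRF1 motif. The windows are chr1:1407294-1407413 (minus strand), chr11:6683341-6683460 (minus strand), chr11:73787754-73787873 (plus strand) and chr19:3762562-3762681 (plus strand).
MRPL20: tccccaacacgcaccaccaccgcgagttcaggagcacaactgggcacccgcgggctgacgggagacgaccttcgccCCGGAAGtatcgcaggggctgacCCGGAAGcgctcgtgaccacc
MRPL17: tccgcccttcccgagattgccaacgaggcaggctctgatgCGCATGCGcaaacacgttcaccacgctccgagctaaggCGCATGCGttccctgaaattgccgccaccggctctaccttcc
MRPL48: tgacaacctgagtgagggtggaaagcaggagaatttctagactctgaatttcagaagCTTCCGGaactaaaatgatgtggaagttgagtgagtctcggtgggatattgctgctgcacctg
MRPL54: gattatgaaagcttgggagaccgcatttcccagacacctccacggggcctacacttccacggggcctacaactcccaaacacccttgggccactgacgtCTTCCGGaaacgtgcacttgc

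Among the homologues of bacterial large subunit proteins, MRPL20 and MRPL17 fell with the mimic relative to neg. MRPL20 corresponds to bacterial L20, a protein known in Escherichia coli for its part in early assembly of the large subunit, and was measured by 2 probes. Probe H300021899 had 529.6, 806 and 739.6 on the mimic arrays, 1254, 1339 and 1081 on the neg arrays and 863 and 918 on the mock arrays. All mimic arrays were below both sets of controls, and the neg arrays were above the mock arrays. The log2 change against neg was -0.80 ± 0.15 (SE), with an adjusted p of 0.0124 in limma. Probe AHsV10001865 of the same gene had 1016, 1388 and 1358 on the mimic arrays, 2212, 2252 and 1917 on the neg arrays and 1347 and 1699 on the mock arrays. Its change of -0.75 ± 0.14 against neg also passed (adjusted p = 0.0124), and its mimic and mock arrays overlapped. Against mock, the changes of the pair of probes were -0.36 and -0.27 (adjusted p of 0.300 and 0.409).

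MRPL17, the homologue of bacterial L17, which lies near the exit of the peptide tunnel, had the largest log2 change of the family against neg. Its signal was 473, 671 and 875 on the mimic arrays, 1745, 1528 and 1344 on the neg arrays, and 783 and 1410.3 on the mock arrays. The mimic and neg arrays did not overlap, whereas the mock arrays differed widely from each other, and the lower of them lay within the range of the mimic arrays. The mean signal was 673 ± 201 with the mimic and 1539 ± 201 with neg (SD, n = 3 each), a 2.29-fold difference. The log2 change was -1.17 ± 0.26, with an adjusted p of 0.0246 in limma. Without mimic array 1 or 2, or without any 1 of the neg arrays, the adjusted p was 0.0526 to 0.0859, so the call rested on those arrays.

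Among the large subunit proteins without a bacterial counterpart, MRPL48 and MRPL41 fell. MRPL48, a protein of the central protuberance, had 252, 212 and 213 on the mimic arrays, 319.8, 406 and 394 on the neg arrays and 419 and 412 on the mock arrays. Every mimic array was below every control array, and the neg arrays were below the mock arrays. Relative to neg the log2 change was -0.62 ± 0.09 and the fold 1.66 (adjusted p = 0.00584). MRPL41, known also as a mitochondrial protein that binds BCL2, had 369.9, 385 and 358 on the mimic arrays, 455, 477 and 446 on the neg arrays and 422 and 462 on the mock arrays. Its mimic arrays again lay below all controls, and its change of -0.27 ± 0.05 against neg was a small one of 1.24-fold (adjusted p = 0.00982). The calls of MRPL48, MRPL41 and both MRPL20 probes against neg held in limma when each of the 8 arrays was left out in turn.

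In the small subunit, MRPS17, the homologue of bacterial S17, was the only gene to pass against neg. Its signals were 601, 682 and 643 on the mimic arrays, 952, 867 and 774 on the neg arrays and 703 and 921 on the mock arrays. The mimic arrays were below all 5 control arrays, and the log2 change against neg was -0.40 ± 0.11 (adjusted p = 0.0476). Without any 1 of the mimic or neg arrays the adjusted p was 0.0534 to 0.143.

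The 5 members that rose relative to neg were MRPL45, MRPL54, MRPL50, MRPL44 and MRPL30. MRPL45, which anchors the ribosome to the inner membrane near the tunnel exit, had 912, 1071 and 952 on the mimic arrays, 543, 609 and 619 on the neg arrays and 943 and 934 on the mock arrays. Mimic and mock arrays overlapped, and the neg arrays were below all the others. The log2 change against neg was 0.68 ± 0.07, or 1.66-fold, with the smallest adjusted p of the family, 0.00149 in limma. That call held without each of the 8 arrays in turn.

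MRPL54, a mitochondria-specific large subunit protein, had 905, 1014 and 985 on the mimic arrays, 708, 633 and 664 on the neg arrays and 988 and 735 on the mock arrays. The neg arrays were again below all the others, and the change against neg was 0.50 ± 0.10 (adjusted p = 0.0177). MRPL44, whose fold resembles that of RNase III enzymes, had 331, 289 and 281 on the mimic arrays, 236, 249.9 and 220.0 on the neg arrays and 279 and 286 on the mock arrays. Its change was 0.30 ± 0.06 (adjusted p = 0.0213), with mimic and mock arrays overlapping. MRPL50, also mitochondria-specific, averaged 511 ± 4.18 with the mimic and 353 ± 54.7 with neg (SD, n = 3 each), a change of 0.49 ± 0.11 (adjusted p = 0.0287), and 448 ± 75.7 in mock (SD, n = 2). MRPL30, the homologue of bacterial L30, rose by 0.22 ± 0.05 at probe H300014128 (adjusted p = 0.0307), where it averaged 80.3 ± 3.60 with the mimic, 62.2 ± 2.73 with neg and 76.4 ± 10.4 in mock. Its other probe, H300022183, changed by 0.14 and did not pass (adjusted p = 0.358).

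In each of these 5 genes the neg mean was the lowest of the 3 groups. The mimic differed from mock by only 0.05 to 0.18 on the log2 scale (adjusted p of 0.497 to 0.796), while neg differed from mock by -0.63 to -0.17 (adjusted p of 0.0116 to 0.224). The comparisons share arrays, and the values stand side by side without a test of their relation. Leaving out 1 array at a time, the call of MRPL44 was lost without neg array 1 or 3 (adjusted p of 0.0677 and 0.0696) and that of MRPL54 without mimic array 2 or 3 or neg array 2 or 3 (0.0528 to 0.0570). MRPL50 lost its call without any mimic array or without neg array 1 or 3 (0.0531 to 0.0753), and MRPL30 without any 1 of the 6 mimic and neg arrays (0.0510 to 0.0968).

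**Figure D2:**
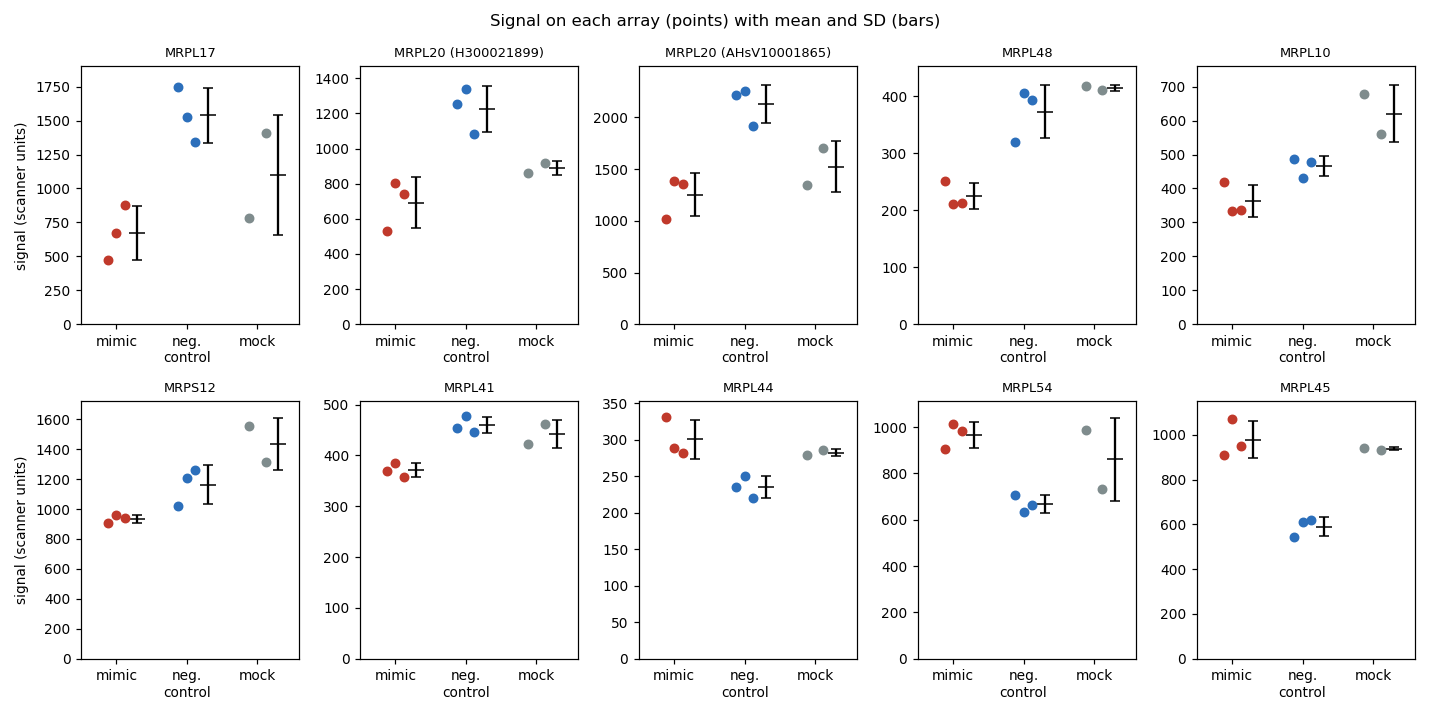
Signal in scanner units on each array (points) for the 10 member spots with the smallest adjusted p, by group (mimic, neg and mock), with the mean and SD of each group beside the points (n = 3, 3 and 2). For MRPL48 the mimic arrays, at 212 to 252, lie below every control array, and for MRPL45 the neg arrays, at 543 to 619, lie below both other groups.

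Relative to mock, 3 of 84 member spots passed, and all 3 were lower with the mimic. Over all tested probes 3.77% passed, 2.56% lower and 1.22% higher, and at an unadjusted p below 0.05 there were 16 of 84 members, beside 2388 of 12904 tested probes. MRPL48 had the smallest adjusted p, with a log2 change of -0.76 ± 0.10 and a fold of 1.84 (adjusted p = 0.0112 in limma). MRPL10, the homologue of bacterial L10, which holds the stalk of the large subunit, had 418, 333 and 337 on the mimic arrays, 486, 432 and 479 on the neg arrays and 679.7 and 562 on the mock arrays. The 3 groups did not overlap, with mimic lowest and mock highest. The change of MRPL10 was -0.70 ± 0.11 against mock (adjusted p = 0.0193) and -0.33 against neg, which did not pass (adjusted p = 0.0664).

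MRPS12, the homologue of bacterial S12, a protein of the decoding centre, had 904, 958 and 943 on the mimic arrays, 1019, 1209 and 1262 on the neg arrays and 1556 and 1312 on the mock arrays. The groups again did not overlap and stood in the same order. Its change was -0.59 ± 0.10 against mock (adjusted p = 0.0256) and -0.30 against neg (adjusted p = 0.0667). The fourth smallest p against mock was that of MRPL41, at -0.22 ± 0.05, which did not pass (adjusted p = 0.0655).

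With only 2 mock arrays, these calls depended on single arrays. Leaving out a mock array leaves a single one, so that the spread then comes from the mimic and neg arrays alone and the lone mock array is assumed to vary like them. That of MRPL48 was lost without mock array 1 or 2 (adjusted p of 0.0514 and 0.0641), that of MRPL10 without mimic array 2 or 3 or mock array 1 (0.0524, 0.0643 and 0.0760), and that of MRPS12 without any 1 of the mimic or mock arrays (0.0530 to 0.0959). Without mock array 1, none of the 3 passed, and 2 other members, chosen here after their values were seen, were higher with the mimic, namely MRPS7 at 0.84 (adjusted p = 0.0273) and probe AHsV10002239 of MRPL23 at 0.73 (adjusted p = 0.0490). MRPS7 is the homologue of bacterial S7, which nucleates assembly of the small subunit head. It had 1018, 894 and 1123 on the mimic arrays, 674, 750.3 and 711 on the neg arrays and 804 and 539 on the mock arrays. On all arrays together its change was 0.58 against mock (adjusted p = 0.0947) and 0.48 against neg (adjusted p = 0.0587), with all mimic arrays above all controls.

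Transfection of the negative control sequence alone was compared with mock. Here 2 of 84 member spots passed, both lower with neg, and over all tested probes 3.60% passed, 2.23% lower and 1.37% higher. MRPL45 was lower by a log2 change of -0.63 ± 0.08, or 1.59-fold (adjusted p = 0.0116 in limma). MRPS23, a mitochondria-specific small subunit protein, had 985, 1011 and 978 on the neg arrays and 1276 and 1431 on the mock arrays, with 1047, 1274 and 1186 on the mimic arrays. Its neg arrays were below all others, and the change was -0.43 ± 0.08 (adjusted p = 0.0395). Without mock array 1 neither passed (adjusted p of 0.0755 and 0.0977). Without mock array 2, where neg is set against a lone mock array and the spread again comes from the other groups, MRPL45 passed (0.0412) and MRPS23 did not (0.111), and 3 other members did, chosen after their values were seen: MRPL54 at -0.53, MRPS16 at -0.37 and, higher with neg, MRPL33 at 0.39 (adjusted p of 0.0393, 0.0395 and 0.0473). The call of MRPS23 was also lost without any 1 of the neg arrays or mimic array 3 (0.0616 to 0.116).

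MRPL48 was the only member that passed against both controls in the same direction, and it was lower. Over all tested probes 2.01% were lower and 0.775% higher against both. Which member passed depended on the setting. Without mock array 1, MRPS7 was higher against both (adjusted p of 0.0142 against neg and 0.0273 against the lone mock array) and MRPL48 did not pass against mock (0.0514). MRPS7 was also higher against both with an offset of 16 (0.0261 and 0.0433) and with an intensity trend (0.0216 and 0.0353), beside MRPL48. MRPL10 was lower against both with the offset of 16 (0.0437 and 0.0054) and without mimic array 1 (0.0317 and 0.0185), again beside MRPL48. MRPS12 joined MRPL48 as lower against both in the fit of 2 groups alone (0.0499 and 0.0480) and without neg array 1 (0.0328 and 0.0198). In a fit with a replicate block the one call was MRPL10, lower (0.0228 and 0.0204), and MRPL48 did not pass against mock (0.0583). On all 3 mimic arrays, 8 members had signals below all 5 control arrays, namely MRPL10, MRPL19, MRPL41, MRPL48, MRPS11, MRPS12, MRPS17 and probe H300021899 of MRPL20. This held for 8.48% of all tested probes. Another 4 members had mimic signals above all controls, namely MRPL50, MRPS7, MRPS28 and probe H200001933 of MRPS35, against 7.83% of all tested probes. The shares of members were thus near or under those of the array as a whole.

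The members were then grouped by subunit and by origin. The origin classes came from a list of gene symbols and were not checked against protein sequences. MRPS18A and MRPS30 were counted with the large subunit, where their proteins sit despite their names, and MRPS36 was left out of the groups, because its product is now known as KGD4, a component of the 2-oxoglutarate dehydrogenase complex. MRPS36 had a mean signal of 443 ± 36.0 with the mimic, 404 ± 33.2 with neg (SD, n = 3 each) and 399 ± 3.86 in mock (SD, n = 2), and passed no test. Beside the 7.81% lower and 7.82% higher of all tested probes, the counts against neg were as follows. Of the 32 spots for large subunit homologues of bacterial proteins, 3 fell and 1 rose against neg, with a median log2 change of -0.0047. Of the 21 for mitochondria-specific large subunit proteins, 2 fell and 4 rose, with a median of -0.06. Of the 17 for bacterial homologues of the small subunit, 1 fell and 0 rose, with a median of -0.07. Among the 13 mitochondria-specific spots of the small subunit, 0 passed against neg in limma (2 at an unadjusted p below 0.05), and 11 of the 13 had a positive sign, with a median of 0.10. In that last group the median was -0.07 for mimic against mock and -0.20 for neg against mock, where MRPS23 passed and 11 of 13 had a negative sign. All 3 comparisons share arrays, and no test compared the groups of genes with each other.

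**Figure D3:**
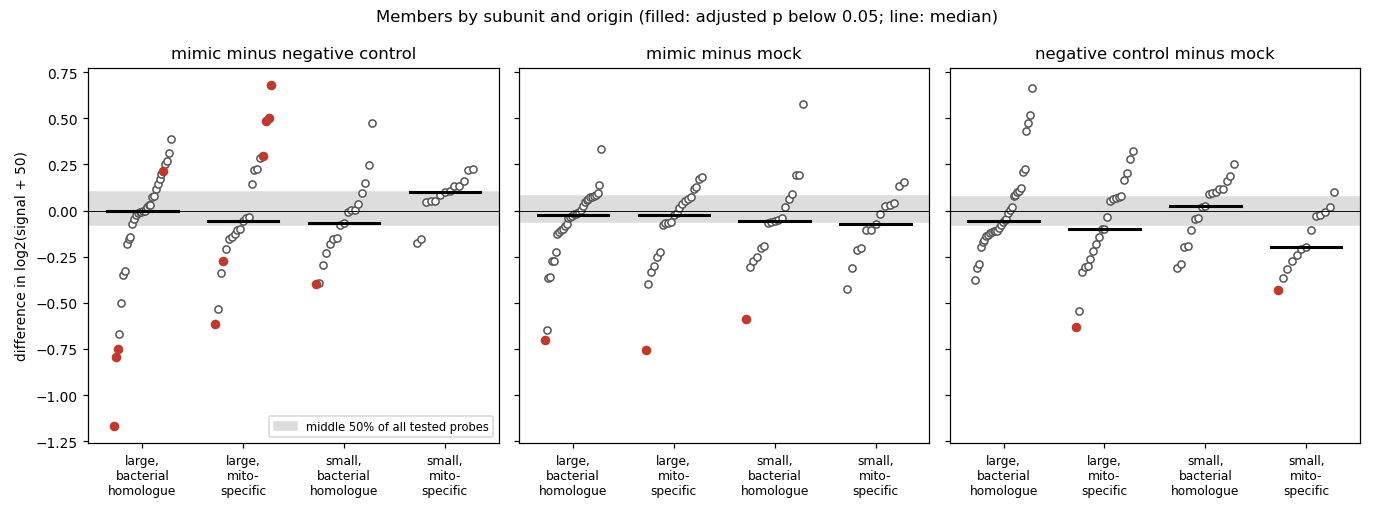
Difference in mean log2(signal + 50) of member probes by subunit and origin, for mimic minus neg, mimic minus mock and neg minus mock. Filled points passed the test, thick lines are the group medians and the grey band holds the middle 50% of all tested probes. The 13 mitochondria-specific small subunit probes have a median of 0.10 on the left and -0.20 on the right, and most other points of each group spread on both sides of 0.

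Probes of the same gene did not always give the same answer. Among the 10 genes with 2 probes, both probes of MRPL20 and 1 of the 2 probes of MRPL30 passed against neg, and the other 8 genes had none that passed. Signs of the pair were opposite for 2 genes against neg, MRPL23 and MRPS6. In MRPL23, a homologue of bacterial L23 at the tunnel exit, the changes were 0.31 and -0.0013 (adjusted p of 0.307 and 0.991). In MRPS6, a homologue of bacterial S6, they were 0.0017 and -0.01 (adjusted p of 0.993 and 0.961), and none of these 4 changes passed. Against mock 4 genes had opposite signs, namely MRPL2, MRPL30, MRPS6 and MRPS35, and between neg and mock 2 did, MRPS6 and MRPS35. In MRPS35, a mitochondria-specific small subunit protein, probe H200001933 averaged 504 ± 18.3 with the mimic and 447 ± 6.09 in mock, against 301 ± 10.2 and 327 ± 16.8 at probe H300012125 (SD, n = 3 and 2), and neither difference passed (adjusted p of 0.118 and 0.369).

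Other genes of mitochondrial translation were examined alongside. Proteins of the mitochondrial ribosome with other names, such as DAP3, CHCHD1 and the rescue factor ICT1 (now MRPL58), were measured by 7 spots of 6 genes. None passed in any of the 3 comparisons in limma, and 3, 0 and 0 had an unadjusted p below 0.05. Over all tested probes 15.6%, 3.77% and 3.60% passed, so the lack of calls among 7 spots says little. Among 17 spots for mitochondrial translation factors, 3 rose and 1 fell against neg, where 7.82% and 7.81% of all tested probes did. The risers were MTRF1L, a release factor, at 207 ± 23.4 with the mimic and 121 ± 8.80 with neg (log2 change 0.59, adjusted p = 0.00277), MRRF, the ribosome recycling factor, at 161 ± 16.2 and 102 ± 26.0 (0.48, adjusted p = 0.0447), and GFM1, the elongation factor that drives translocation, at 45.5 ± 3.64 and 24.0 ± 2.82 (0.37, adjusted p = 0.0122). OXA1L, the insertase that receives nascent chains in the inner membrane, fell at 1 of its 2 probes, with 725 ± 69.7 for the mimic and 908 ± 36.1 for neg (-0.31, adjusted p = 0.0319). None of the 17 passed against mock in limma, and 0 had an unadjusted p below 0.05. Over all tested probes 3.77% passed against mock, and 2388 of 12904 had an unadjusted p below 0.05. MTRF1L was lower in neg than in mock (-0.50, adjusted p = 0.0225).

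Of 28 spots for genes of ribosome assembly and RNA modification in mitochondria, 3 passed against neg, 2 against mock and 4 for neg against mock. Over all tested probes 15.6%, 3.77% and 3.60% passed in these comparisons. NGRN, which is needed for stable 16S ribosomal RNA, rose against neg (0.76, adjusted p = 0.0106). It averaged 275 ± 16.5 with the mimic and 143 ± 22.5 with neg. It was lower in neg than in mock, where it averaged 314 ± 87.4 (-0.90, adjusted p = 0.0253). MTRES1, labelled C6orf203 on the array and known for sustaining mitochondrial transcription under stress, fell against neg (-0.46, adjusted p = 0.0191), as did NSUN3, which modifies a mitochondrial tRNA rather than the ribosome (-0.29, adjusted p = 0.0237). Against mock the ribosomal RNA methyltransferases MRM2, labelled FTSJ2, and MRM1 were lower with the mimic (-0.46 and -0.28, adjusted p of 0.0207 and 0.0135). Both were also lower in neg than in mock (-0.39 and -0.19, adjusted p of 0.0405 and 0.0482), as was MTERF4 (-0.20, adjusted p = 0.0375), a partner of a ribosomal RNA methyltransferase. Of 16 spots for mitochondrial transcription and RNA upkeep, 1 passed against neg, 1 against mock and 0 for neg against mock. TFB2M, a transcription factor of the mitochondrial polymerase, rose against neg (0.29, adjusted p = 0.0492). TWNK, the mitochondrial DNA helicase labelled PEO1, was lower with the mimic than in mock at 1 of its 2 probes (-0.33, adjusted p = 0.0381). The other probe was dim, at 8.15 with the mimic and 10.5 in mock, and did not pass (-0.06, adjusted p = 0.618). Of 9 spots for nuclear regulators of mitochondrial genes, including NRF1, GABPA, YY1 and MYC, 0 passed in any comparison in limma. Beside the shares of all tested probes, 0 calls among 9 spots say little. At an unadjusted p below 0.05 there were 1, 2 and 2 of the 9, beside 4054, 2388 and 2744 of 12904 tested probes.

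For comparison, where 15.6% of all tested probes passed against neg and 3.77% against mock, the cytosolic ribosomal proteins gave 4 lower and 7 higher of 77 spots against neg (14.3%), with a median of 0.06, and 0 against mock (7 at an unadjusted p below 0.05). The NDUF genes of respiratory complex I, to which mitochondrially translated subunits are joined, gave 3 lower and 0 higher of 40 spots against neg, with a median of 0.02, and 0 against mock (5 at an unadjusted p below 0.05). The members gave 11 of 84 against neg and 3 of 84 against mock. No test compared the families.

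The motif letters were counted on both strands of all promoters. CCGGAAG (ETS) was found in 28 of the 67 member genes with a promoter (41.8%), against 22.4% of the other tested genes and 12.2% of all genes with a promoter entry. AAGATGGC, the core of the YY1 motif, was found in 20 member genes (29.9%), against 6.61% and 3.52%. CGCATGCG (NRF1) was found in 3 member genes (4.48%), against 4.63% and 2.46%. Among 60 cytosolic ribosomal protein genes 21 (35%) held the ETS letters, and the shares were 8.33% for YY1 and 1.67% for NRF1. At least 1 motif was present in 42 member genes and none in 25, and 7 genes held both the ETS and the YY1 letters. ETS matches had a median centre at -20.5 bases from the start over 42 matches, with 36 before the start and 6 after it and a range of -218.5 to 10.5, and YY1 matches had their median at 13 bases after the start over 23 matches. The letters did not divide the genes that passed against neg by direction. Of these 10 genes, 4 held ETS letters, namely MRPL20 and MRPL48, which fell, and MRPL30 and MRPL54, which rose. YY1 letters were in 3 of them, MRPL20, MRPL45 and MRPL50, and the pair of NRF1 matches of MRPL17, at -76 and -38 bases, was the only NRF1 hit among the 10. A match describes letters in a window and is not a site of binding. Member and all promoters had similar GC content, with medians of 60.0% and 58.7%.

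**Figure D4:**
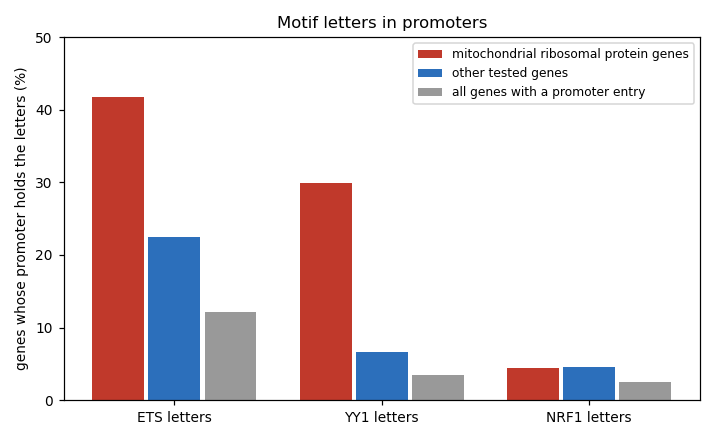
Share of genes, in percent, whose RefSeq promoter (250 bases before to 50 bases after a start) held the ETS, YY1 or NRF1 letters on either strand, for the 67 mitochondrial ribosomal protein genes with a promoter, for other tested genes and for all genes with an entry. The YY1 letters were in 29.9%, 6.61% and 3.52% of the 3 sets.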

How the data were processed

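Total RNA of HCT116 cells was amplified, labelled with Cy5 and hybridised to a 3D-Gene 25K chip, 1 sample per array (3 mimic, 3 neg and 2 mock). The authors deposited spot intensities at 635 nm, without background correction or normalization per the file headers, and a table of log2 values that they had normalized by quantiles. How background was removed for that table is not stated in the sources at hand, and it served as an alternative. The deposited reading at 532 nm belonged to no sample and was not used. Background was estimated by normexp from the 2680 blank spots (offset 50) and arrays were then quantile normalized. R 4.3.3 was used with limma 3.58.1, and labels were read with jsonlite 2.0.0. The 316 other control spots and 13 spots marked faulty were left out. A probe was above background when brighter than 95% of the blank spots of its array, and the 12904 probes above it on at least 2 arrays were tested.

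A model of group means over the 8 arrays was fitted by lmFit and eBayes of limma (5 residual and 2.36 prior degrees of freedom), 2-sided, with Benjamini-Hochberg adjustment over all tested probes and a threshold of 0.05. The number of arrays limits the precision. The steps were tested on simulated data. The members and gene lists were chosen with earlier results of these data known, and gene lists were described by counts and medians. Named were the members past the threshold, the dimmest and the brightest, the probes of a gene that differed in sign or call, and the genes of the mitochondrial lists past the threshold. Values per array were due for the 8 smallest adjusted p-values against neg and the 4 smallest against mock, and were added for a few others. The methods' thresholds were a t-test p below 0.001, a change above 2-fold and a mean log2 above 5. They were applied here to log2 values with the offset, not to the authors' own normalized values, and to each comparison alone. With the offset every log2 value exceeds 5, so that threshold removes no probe, and changes of dim probes come out too small. The paper used both comparisons of the mimic with a control. In the form used here, 0 members were selected in each of the 3 comparisons (35, 10 and 3 probes over the array). By the methods' t-test, 25, 8 and 10 members had a p below 0.05. Alternatives were the ring around each spot as background, the mean of the blank spots, an offset of 16, median scaling and the authors' log2 values. Others were no filter, a stricter filter, an intensity trend, 2 groups alone, a replicate block, the methods' t-test and each array left out. Promoters and the miRNA were RefSeq's. They were not given for MRPL10, MRPL13, MRPL15, MRPL2, MRPL21, MRPL23, MRPL35 and MRPS28. Probe sequences were not analysed here.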

Additional observations from a re-analysis of the deposited data

How the results depend on the processing

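The counts of members past the test, 11, 3, 2 and 1 for mimic against neg, mimic against mock, neg against mock and both controls, depended on the processing. The shares of all tested probes given above belong to the main fit, and those under the alternatives are not given. The counts below, also those with an array left out, therefore do not show whether the members moved apart from the whole array. With the ring around each spot as background, they were 0, 0, 0 and 0. With median scaling they were 2, 1, 0 and 0, with the authors' log2 values 4, 0, 0 and 0, and with the methods' t-test 4, 0, 0 and 0. Without a filter they were 3 against neg, 1 against mock and 1 for neg against mock. Subtraction of the blank mean gave 1 for mimic against mock and 1 for neg against mock. An offset of 16 gave 18 against neg and 3 against both controls, the fit of 2 groups alone 18 and 2, and an intensity trend 1 for neg against mock and 2 against both. Correlations of same-numbered deviations were -0.11 to 0.35. Deviations of the 2 mock arrays from their own mean are equal and opposite. An array's values with mock array 1 and mock array 2 therefore differ only in sign by construction and are a single observation. Mimic array 1 gave 0.35 with mock array 1, mimic array 2 gave 0.27 with mock array 2 and neg array 1 gave -0.11 with mock array 1. Same-numbered mimic and neg arrays gave 0.02 to 0.10, and the others -0.06 to 0.04. These values do not settle whether replicate numbers pair the samples. In a fit with a replicate block the counts were 12, 1, 1 and 1, the last being MRPL10 in place of MRPL48.

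Leaving out each array in turn gave 5 to 18 members against neg (5 without neg array 3, 7 without neg array 1 or mimic array 2, and 18 without either mock array), 1 to 4 against mock, 0 to 4 for neg against mock, and 0 to 2 against both controls (0 without mock array 2). All 11 members were among the 18 found with the offset of 16. With the ring background 3 log2 changes against neg reversed, those of MRPL50 (-0.69), MRPL44 (-0.023) and MRPL48 (0.25), each with an adjusted p of 1 after rounding. The cause was not tested. With the authors' log2 values the median of all probes for neg against mock moved to -0.12, and that of the members was -0.12. Of 209 values of the named members against neg under the alternatives, 131 stayed on the same side of the threshold, 75 no longer passed and 3 reversed. For mimic against neg, leaving out either mock array gave the same values as the fit of 2 groups alone. Those values were therefore counted more than once among the 131. Of 76 against mock 28 no longer passed, and of 38 for neg against mock 19 no longer did. The 76 include 19 values of MRPL41, which had not passed against mock and passed under no alternative, so they had no call to lose.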
